A study of Mus musculus with 10 samples.

Results

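Potassium channel genes were taken as the rows of the count table whose Ensembl identifier maps, in the GENCODE annotation of GRCm39, to a protein-coding gene with a symbol that starts with Kcn. The rule found 94 genes among 78298 rows. Of these, 45 passed the filter on low counts and were tested together with all 16700 genes that passed it, 47 had counts but too few to be tested, and Kcnk15 and Kcns2 had no count in any library. Another 5 rows with such symbols belonged to other gene types and were left out.

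Transcripts were measured by bulk RNA sequencing of hearts from female mice of C57BL/6J background. The groups were 5 libraries labelled wild type, called W1 to W5 here, and 5 labelled p38δ knockout, called K1 to K5. p38δ, the product of Mapk13, is a protein kinase of the stress response, and a germline knockout is meant to lack it in every cell from the start of life. Mice of both groups had been given doxorubicin, an anthracycline that injures heart muscle, as 1 intraperitoneal dose of 30 mg/kg, and the hearts were taken at 72 h. No untreated heart was measured, so the comparison asks how potassium channel transcripts differ with genotype after the drug and does not give the effect of the drug. The labels do not state the age of the mice, which part of Mapk13 was removed, a batch, or that each library came from its own mouse, so p-values measure the spread between these libraries. The titles of the 2 groups follow different naming schemes, and a cohort that went with the titles cannot be told apart from genotype.

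Potassium channels let potassium ions leave or enter the cell down their gradient. In heart muscle cells they set the resting potential and end each action potential, and voltage-gated channels built from Kv4 subunits with their KChIP2 partner carry most of the fast early repolarisation of the mouse ventricle. Inward rectifiers hold the resting potential, and their ATP-sensitive relatives couple it to the energy state of the cell. Tandem-pore channels carry a background leak, and calcium- or sodium-activated channels open with the ion they are named for. Accessory subunits and silent subunits form no conducting channel of their own and change the surface level or gating of others.

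The libraries differed in ways that the labels do not explain. Totals were 22082289 to 40627138 counts in W1 to W5 and 21403189 to 33477767 in K1 to K5. Mapk13 had 292, 5, 2, 1 and 4 counts in W1 to W5 and 12, 10, 10, 15 and 9 in K1 to K5, which goes against the labels in all but W1, so all directions below are between libraries as labelled. The summed level of 6 markers of lung and airway epithelium was 781.4 CPM in W1, 70.3 in W3 and 0.358 to 1.2 elsewhere. CPM is a gene's count scaled to a common library size with TMM factors. The factor was 1.302 in W1 and 0.922 to 1.008 elsewhere, so CPM in W1 is lower than library totals alone would give. The summed level of 6 atrial markers was 814.3 CPM in W1, 159.1 in W2 and 11.4 to 20.8 elsewhere, and that of 6 fast skeletal muscle markers was 550.0 CPM in W1 and 1.35 to 10.4 elsewhere. Markers of T cells summed to 15.5 CPM in K2, 4.13 in W1 and 0.571 to 1.65 elsewhere. Brown fat, mast cell and B cell markers were also highest in W1 as sums, at 243.7, 14.5 and 9.25 CPM against at most 40.5, 3.85 and 1.48. Of the 4 mast cell markers, Tpsab1 differed, with 0 to 0.242 CPM in W1 to W5 and 0.681 to 1.26 in K1 to K5. The mast cell list held 1 called gene. Erythroid markers summed to 3.93 CPM in W1, 2.60 to 2.86 in K1 to K4 and 0.206 to 0.932 elsewhere. Endothelial markers ran from 502.8 to 590.7 CPM. Ventricular muscle markers were abundant throughout, from 14450 CPM in W1 to 46180 in K4. In bulk tissue, fewer cells of a type and less RNA per cell cannot be told apart.

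The sequence that defines a potassium-selective pore was found in 77 of the 94 genes and in none of the 17 accessory and regulator genes. It is the selectivity filter, a stretch of threonine or serine, any residue, glycine, then tyrosine, phenylalanine or leucine, and glycine, searched for in frame in the coding sequence of 1 transcript per gene. Of 21770 coding transcripts searched in the same way, 1171 (5.38%) held a match, so a match alone does not define a channel. All 14 tandem-pore genes had at least 1 match and 13 had 2, as each subunit carries a pair of pore loops. Outside that class the only genes with 2 matches were Kcna6 and Kcnh2, among 30 genes of voltage-gated pore subunits. Over 90 matches for which a window was kept, the fourth residue was tyrosine in 59, phenylalanine in 26 and leucine in 5. The leucines include the first matches of Kcna6 and Kcnh2, whose second matches have tyrosine and phenylalanine. These are therefore counts of matches and not only of pore filters. The windows below show the filters of the most abundant channels, of the genes with the smallest p-values and of the genes that set K4 apart. Each is the coding strand in GRCm39 with 3 codons on either side of the filter, and the capitals mark the 15 bases of the filter.
Kcnj11 (chr7:45748911-45748943, minus strand): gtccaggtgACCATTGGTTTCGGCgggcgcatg
Kcnj8 (chr6:142512165-142512197, minus strand): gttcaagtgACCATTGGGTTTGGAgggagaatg
Kcnj2 (chr11:110963024-110963056, plus strand): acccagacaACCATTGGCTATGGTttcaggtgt
Kcnj3 (chr2:55327630-55327662, plus strand): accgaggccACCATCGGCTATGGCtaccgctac
Kcnj5 (chr9:32233846-32233878, minus strand): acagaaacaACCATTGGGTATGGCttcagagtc
Kcnk3, second filter (chr5:30779537-30779569, plus strand): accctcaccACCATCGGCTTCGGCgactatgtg
Kcnk6, second filter (chr7:28924952-28924984, minus strand): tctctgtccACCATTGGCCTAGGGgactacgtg
Kcnt2 (chr1:140353007-140353039, plus strand): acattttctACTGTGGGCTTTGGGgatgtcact
Kcna5 (chr6:126510699-126510731, minus strand): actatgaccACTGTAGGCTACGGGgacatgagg
Kcna7 (chr7:45058876-45058908, plus strand): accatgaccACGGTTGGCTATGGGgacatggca
Kcnh2, second match (chr5:24530544-24530576, minus strand): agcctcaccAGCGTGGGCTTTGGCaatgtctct
These windows each lie in 1 coding exon. The first filters of the tandem-pore genes Kcnk3 and Kcnk6 are each split by an intron in the genome and have tyrosine at the fourth place.
Kcnk3, first filter, spliced: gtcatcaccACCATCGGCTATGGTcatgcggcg
Kcnk6, first filter, spliced: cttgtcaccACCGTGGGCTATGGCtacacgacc
The ATP-sensitive rectifiers Kcnj11 and Kcnj8 both had phenylalanine at the fourth place, where Kcnj2, Kcnj3 and Kcnj5 had tyrosine. The second filter of Kcnk6 had leucine there, and that of Kcnk3 had phenylalanine.

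A few genes made up most of the potassium channel transcripts of these hearts. To compare genes, CPM was divided by the length of the gene's exons, as CPM per kb. Kcnj11, the pore subunit of the ATP-sensitive channel of heart muscle, had the highest level, with 28.7 ± 5.58 CPM per kb in W1 to W5 and 29.8 ± 5.23 in K1 to K5 (SD, n = 5 each). Kcnip2, which encodes the KChIP2 partner of Kv4 channels, followed with 20.4 ± 5.69 and 23.2 ± 5.64 CPM per kb. These were followed by the G-protein-gated rectifier subunit Kcnj3 with 15.97 ± 1.40 and 14.7 ± 2.26, the classical inward rectifier Kcnj2 with 11.9 ± 1.90 and 14.1 ± 0.807, the acid-sensitive leak channel Kcnk3 with 11.5 ± 1.88 and 11.8 ± 1.57, and the second G-protein-gated subunit Kcnj5 with 10.8 ± 0.568 and 10.8 ± 0.935. In W1 to W5 the levels of Kcnj2, Kcnk3 and Kcnj5 did not differ beyond their spread between libraries. Kcnj2 lay above Kcnj5 in each of W2 to W5 and K1 to K5, and below it in W1 (8.86 against 11.2 CPM per kb). All 6 lay above the next gene, Kcnh2, in every library, with the smallest gap in K4, where Kcnh2 reached 10.2 and Kcnj5 10.6 CPM per kb. Before division by length, Kcnk3 had means of 106.3 CPM in W1 to W5 and 109.7 in K1 to K5. Those of Kcnj11 were 105.4 and 109.5 CPM, and the exon lengths of Kcnk3 and Kcnj11 were 9278 and 3677 bases.

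Together these 6 genes held 66.5% of the summed level per kb of all 94, the first 10 held 80.7%, and 15 genes made 90% of it. The places after the first 6 were taken by Kcnh2 (6.47 CPM per kb as the mean of 10 libraries), which encodes the rapid delayed rectifier, Kcna5 (6.06), a delayed rectifier, Kcnj8 (5.67), the ATP-sensitive pore of vessel wall cells, and Kcnq1 (3.50), the slow delayed rectifier. The Kv4 genes Kcnd2 and Kcnd3 stood at 2.45 and 2.36 CPM per kb, below their partner Kcnip2. At the low end, 23 of the 45 tested genes had a mean under 3 CPM in both groups.

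**Figure D1:**
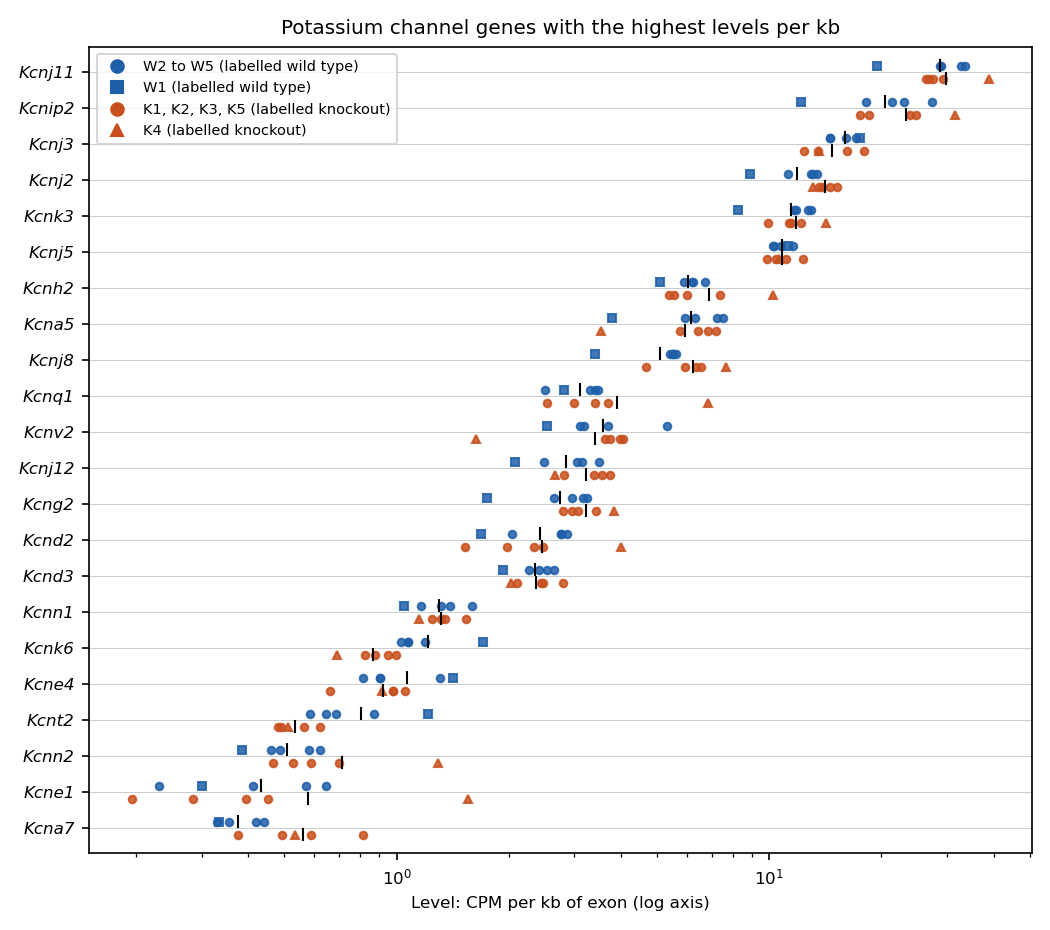
Level of 22 potassium channel genes, among those with the highest CPM per kb of exon, on a log axis, in each of the 10 libraries (blue, W1 to W5 labelled wild type; orange, K1 to K5 labelled knockout; square, W1; triangle, K4; vertical bars, group means). Kcnj11 lies highest with group means of 28.7 and 29.8 CPM per kb, and W1 is the lowest blue point for most of the abundant genes.

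The share of the summed level per kb held by each of 5 classes differed between groups by less than the larger SD, except for tandem-pore genes. Inward rectifiers held 50.8% ± 1.37 of it in W1 to W5 and 50.7% ± 1.86 in K1 to K5 (SD, n = 5 each). Voltage-gated pore subunits held 17.8% ± 0.251 and 18.2% ± 0.670, accessory subunits of voltage-gated channels 15.2% ± 2.44 and 16.1% ± 2.27, tandem-pore genes 9.09% ± 0.306 and 8.45% ± 0.422, and silent subunits 4.31% ± 0.506 and 4.30% ± 0.741. These shares were not tested. The sum itself ran from 123.7 CPM per kb in W1 to 181.3 in K4, and the other 8 libraries lay between 143.2 and 162.4.

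No potassium channel gene passed the test between the groups. With edgeR's quasi-likelihood test and Benjamini-Hochberg adjustment over all genes, 0 of 45 were called at 0.05, beside 59 of 16700 genes (0.353%), and the lowest adjusted p was 0.597, for Kcnt2. DESeq2 and limma voom also called 0 of 45. Before adjustment, 5 of 45 (11.1%) had p under 0.05, beside 6.86% of all genes tested, with 6 under DESeq2 and 5 under voom. Kcna7 and Kcnj2 had the higher mean in the knockout-labelled libraries, and Kcnt2, Kcnk6 and Kcnk13 the lower. In 1 gene, Kcnk6, every library of a group lay below every library of the other (2.22%), beside 1.78% of all genes. Of the 45, 24 had a fitted log2 fold change above 0 and 21 below (14 and 31 when scaled by library totals only), with a median of 0.01 against -0.01 over all genes tested. The size of the fitted change, without its sign, had a median of 0.22 on the log2 scale against 0.12 over all genes, and low-count genes have the wider errors.

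For the abundant channels the data bound the difference. Among the 16 genes with a mean of at least 10 CPM in both groups, log2 fold changes ran from -0.12 for Kcnj3 to 0.33 for Kcnq1, with 13 above 0 and 3 below. The counts were 9 and 7 without W1, 12 and 4 without K4, 7 and 9 without both, and 8 and 8 with library totals only. All 16 had a 95% interval within 2-fold either way and 11 within 1.5-fold, and the widest bounds among them were 0.645-fold for Kcnv2 and 1.81-fold for Kcnq1. Over all 45 tested genes, 30 had an interval within 2-fold. A missed threshold does not show that the groups were alike, and for the rarer channels larger differences would not have been detectable at this depth.

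**Figure D2:**
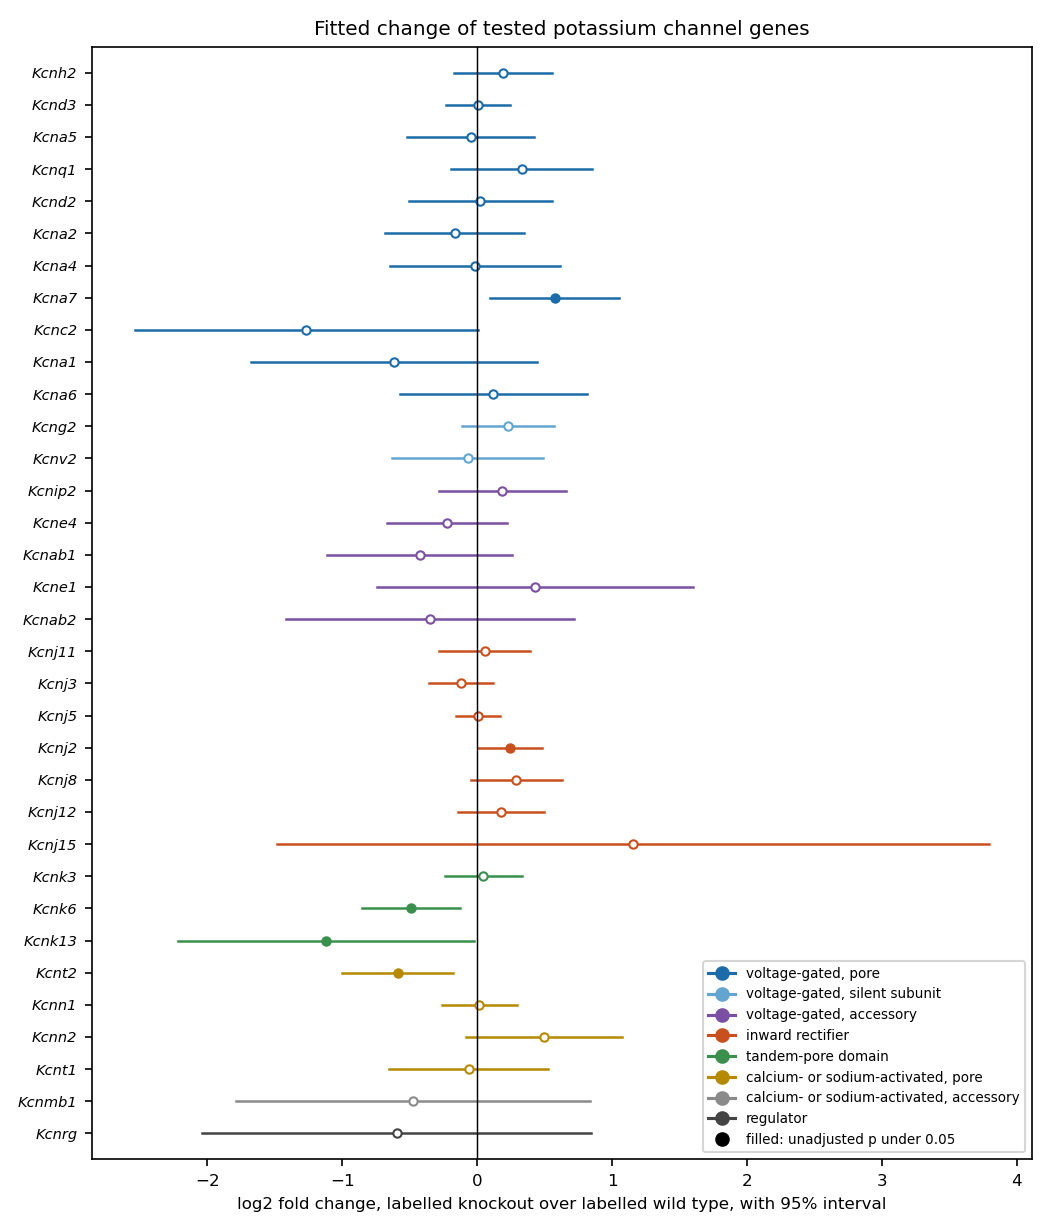
Fitted log2 fold change of 34 of the 45 tested genes, knockout-labelled over wild-type-labelled, with 95% intervals from edgeR's quasi-likelihood fit, by class and by level within a class. Filled points mark the 5 genes with an unadjusted p under 0.05. The intervals are narrow for Kcnj5 and Kcnd3 and wide for low-count genes such as Kcnj15 and Kcnc2.

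Inward rectifiers carried the largest share of transcripts, and 6 of the 7 tested had a fitted change above 0, with a median of 0.18 (4 of 7 with library totals only, 5 of 7 without W1 and K4). Kcnj2, which encodes Kir2.1 and holds the resting potential, stood at 48.5, 73.3, 71.5, 61.3 and 70.7 CPM in W1 to W5 and at 75.7, 74.5, 83.0, 71.85 and 79.8 CPM in K1 to K5. W1 and W4 were the low libraries, K4 lay below W2, and the other 4 knockout-labelled libraries lay above all 5 of the other group. Its log2 fold change was 0.24 with a standard error of 0.11 (edgeR, unadjusted p = 0.0451, adjusted p = 0.714), and 0.15 without W1 (unadjusted p = 0.0598). Its relative Kcnj12, which encodes Kir2.2, stood at 12.7, 15.2, 18.6, 19.2 and 21.4 CPM in W1 to W5 and at 22.8, 20.7, 21.7, 16.3 and 17.2 CPM in K1 to K5, so the groups overlapped (adjusted p = 0.813 by edgeR for a log2 fold change of 0.18).

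Neither of the ATP-sensitive pore genes was called. Kcnj11 stood at 71.4, 106.5, 105.7, 123.1 and 120.2 CPM in W1 to W5 and at 98.9, 101.0, 107.8, 143.0 and 96.7 CPM in K1 to K5. The lowest value was that of W1 and the highest that of K4, and the fold lay between 0.823 and 1.31 (95% interval). Without those 2 libraries its log2 fold change was -0.17, in the other direction (unadjusted p = 0.0384 by edgeR), and it was not called. Kcnj8, which encodes the pore of pericyte and smooth muscle channels, had 12.9 CPM in W1, 20.4 to 21.2 in W2 to W5, and 23.96, 24.8, 22.3, 28.8 and 17.6 CPM in K1 to K5. K5 lay below W2 to W5 and the other knockout-labelled libraries above them (adjusted p = 0.740 by edgeR for a log2 fold change of 0.29 with a standard error of 0.16). The summed level of 7 pericyte and smooth muscle markers was lowest in W1 and highest in K4 as well, at 650.9 and 953.2 CPM, and 728.8 CPM in K5. The 7 markers did not move together. Rgs5, which made up most of the sum, was lowest in W1 at 382 CPM and stood in K4 at 682.6 CPM, below its values in W4, W5, K1, K2 and K3. K4 was highest for 4 of the 7, among them Acta2 at 123.6 CPM, while Myh11 and Tagln were highest in W1. The part of cell content in the Kcnj8 values was not tested.

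Kcnj3 and Kcnj5 encode the subunits of the channel through which the vagus nerve slows the atria and the pacemaker. Kcnj3 stood at 99.6, 91.3, 82.3, 82.6 and 96.7 CPM in W1 to W5 and at 76.7, 70.3, 101.6, 76.9 and 91.5 CPM in K1 to K5, with K1, K2 and K4 below all of W1 to W5 (adjusted p = 0.838 by edgeR for a log2 fold change of -0.12). Kcnj5 had the narrowest interval of all members, with 84.7 ± 4.45 and 84.98 ± 7.32 CPM (SD, n = 5 each) and a fold between 0.895 and 1.12. The atrial gene Bmp10 was at 99.4 CPM in W1, 34.95 in W2 and at most 0.0962 elsewhere. Kcnj3 in W1 was the highest of W1 to W5 and second to K3 among all 10 libraries, and Kcnj3 was at 70.3 CPM or above in each. The part of atrial content in these values was not tested. Kcnj15, a rectifier of epithelia, had 11.3 CPM in K2, 4.15 in W1 and 0.192 to 0.719 in the other 8. The summed level of 5 general epithelial markers was also highest in W1 and K2, at 71.8 and 13.9 CPM, against 2.05 to 6.56 elsewhere, and its part in the Kcnj15 values was not tested.

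Among voltage-gated pore subunits, 11 of the 18 tested had a fitted change above 0 and 7 below, with a median of 0.04 (8 and 10 without W1 and K4, 6 and 12 with library totals only). The Kv4 genes of the fast transient current overlapped between groups. Kcnd2 stood at 9.75, 16.03, 11.8, 16.02 and 16.6 CPM in W1 to W5 and at 8.81, 11.5, 14.3, 23.1 and 13.6 CPM in K1 to K5. Its highest value was in K4 and its direction turned without that library, from a log2 fold change of 0.03 to -0.22 (adjusted p = 0.824 by edgeR). Kcnd3 had 23.5 ± 2.72 and 23.6 ± 3.07 CPM (SD, n = 5 each). Their partner Kcnip2 stood at 48.7, 92.5, 72.9, 109.8 and 85.5 CPM in W1 to W5 and at 70.2, 99.1, 95.6, 126.6 and 74.1 CPM in K1 to K5, again lowest in W1 and highest in K4 (adjusted p = 0.872 by edgeR for a log2 fold change of 0.19).

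The delayed rectifiers split by how they behaved in K4. Kcnh2 stood at 26.4, 30.7, 32.3, 32.4 and 34.8 CPM in W1 to W5 and at 27.9, 31.1, 38.2, 53.0 and 28.8 CPM in K1 to K5. K4 lay above every other library, and without it the log2 fold change of Kcnh2 went from 0.19 to 0.01. Kcnq1 stood at 14.5, 16.9, 12.8, 17.5 and 17.8 CPM in W1 to W5 and at 13.0, 15.3, 18.9, 35.1 and 17.5 CPM in K1 to K5, and its log2 fold change of 0.33 went to 0.03 without K4. Reads of Kcnq1 and of the antisense transcript Kcnq1ot1, with mean counts of 561.9 and 241.1, cannot be told apart where they overlap, since the strand setting is not given in the sources used here. Kcna5, which encodes Kv1.5, stood at 10.8, 18.1, 17.03, 21.5 and 20.7 CPM in W1 to W5 and at 20.6, 18.4, 19.6, 10.1 and 16.4 CPM in K1 to K5. It was lowest in K4 and W1, the libraries at the opposite ends of the ventricular marker sum, and its group means differed by less than either SD (17.6 ± 4.22 and 17.05 ± 4.17 CPM, SD, n = 5 each).

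**Figure D3:**
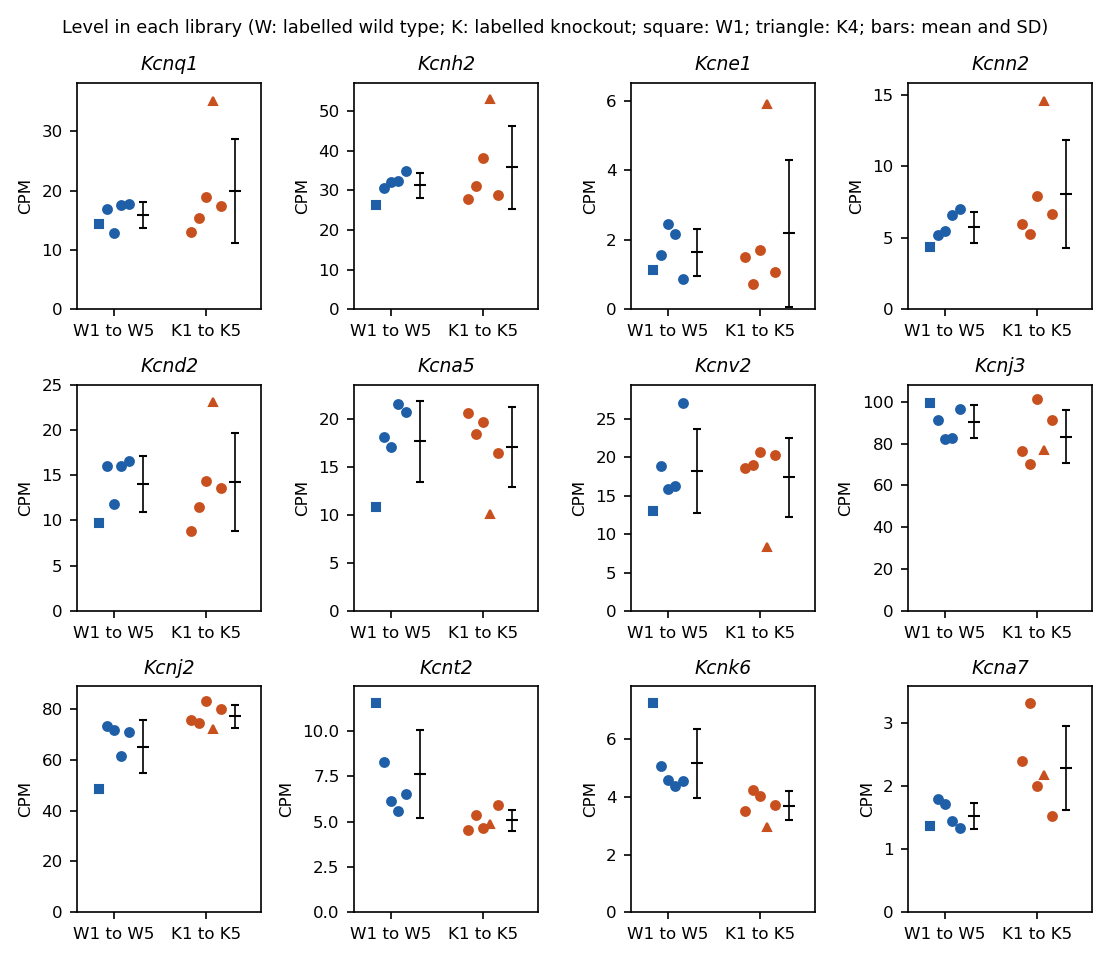
CPM of 12 potassium channel genes in each library, labelled wild type (W1 to W5, blue; square, W1) and labelled knockout (K1 to K5, orange; triangle, K4), with the group mean and SD as bars. K4 is the highest point for Kcnq1, Kcnh2, Kcne1, Kcnn2 and Kcnd2 and the lowest for Kcna5 and Kcnv2. For Kcnk6 every knockout-labelled library lies below every wild-type-labelled one.

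Among the rarer voltage-gated genes, Kcna7 and Kcnc2 had the smallest p-values. Kcna7, a delayed rectifier of skeletal and heart muscle, stood at 1.36, 1.79, 1.71, 1.44 and 1.34 CPM in W1 to W5 and at 2.40, 3.31, 1.999, 2.17 and 1.53 CPM in K1 to K5. Only K5 fell within the range of the other group, and the log2 fold change was 0.58 with a standard error of 0.22 (edgeR, unadjusted p = 0.0224, adjusted p = 0.668). The summed level of 6 fast skeletal muscle markers was 550.0 CPM in W1, where Kcna7 was at 1.36 CPM. That sum was 3.77 to 10.4 CPM in K1 to K4, 1.35 in K5 and 1.59 to 2.10 in W2 to W5. The part of skeletal muscle content in the Kcna7 values was not tested. Kcnc2, a fast channel of neurons, had 2.42 and 2.17 CPM in W1 and W2 and 0.162 to 1.02 in the other 8. W1 and W2 were also the libraries with atrial markers, whose part in the Kcnc2 values was not tested. Without W1, W2, K2 and K4 the log2 fold change of Kcnc2 turned from -1.27 to 0.22. Kcna4, which encodes the slower transient channel Kv1.4, was low at 1.68 ± 0.584 and 1.65 ± 0.559 CPM (SD, n = 5 each).

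Silent and accessory subunits of voltage-gated channels showed no common direction, with 1 of 2 silent and 2 of 6 accessory genes above 0. Kcng2, a silent subunit that joins Kv2 channels, stood at 19.2, 29.0, 35.5, 34.6 and 32.4 CPM in W1 to W5 and at 37.6, 33.6, 32.4, 42.1 and 30.5 CPM in K1 to K5 (log2 fold change 0.23, adjusted p = 0.772 by edgeR). It overlaps Slc66a2 on the opposite strand, with mean counts of 1003 and 585.3, so its level is uncertain. Kcnv2, another silent subunit, had 13.0 to 27.2 CPM in W1 to W5, 18.6 to 20.7 in 4 of the knockout-labelled libraries and 8.34 in K4. The transcript Gm50114 overlaps Kcnv2 on the opposite strand, with a mean count of 182.7 against 561.9. Kcne1, the accessory subunit that slows Kcnq1 channels, had 1.14, 1.56, 2.45, 2.17 and 0.875 CPM in W1 to W5 and 1.495, 0.739, 1.71, 5.90 and 1.08 CPM in K1 to K5. Its direction turned without K4, from a log2 fold change of 0.43 to -0.38 (adjusted p = 0.840 by edgeR). Kcne4, an inhibitory relative, had 2.84 ± 0.724 and 2.44 ± 0.403 CPM (SD, n = 5 each).

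Tandem-pore genes, with 2 of 5 tested above 0 and none above with library totals only, held both Kcnk3, among the most abundant channels, and Kcnk6, the gene whose groups did not overlap. Kcnk3, which encodes the leak channel TASK-1, stood at 76.4, 108.0, 109.7, 117.7 and 119.8 CPM in W1 to W5 and at 104.9, 113.0, 106.3, 132.0 and 92.2 CPM in K1 to K5 (log2 fold change 0.05, fold between 0.847 and 1.26). An antisense transcript, Gm9899, overlaps it with a mean count of 545.6 against 3359. Kcnk6, which encodes TWIK-2, stood at 7.25, 5.06, 4.57, 4.38 and 4.55 CPM in W1 to W5 and at 3.50, 4.23, 4.05, 2.95 and 3.71 CPM in K1 to K5. W1 stood well above the rest and K4 was lowest, while the nearest values of the groups, 4.38 CPM in W4 and 4.23 in K2, differed by less than either SD (1.19 and 0.498 CPM). The log2 fold change was -0.49 with a standard error of 0.17 (edgeR, unadjusted p = 0.0125, adjusted p = 0.616), -0.33 without W1 (unadjusted p = 0.0268) and -0.26 without W1 and K4 (unadjusted p = 0.0550). The summed level of 6 markers of macrophages, in which TWIK-2 is known, was also highest in W1, at 311.6 CPM against 80.6 to 122.5 elsewhere, and its part was not tested. Kcnk13, a leak channel known from microglia, had 1.63 CPM in W1, 0.463 to 0.590 in W2 to W5 and 0.130 to 0.619 in K1 to K5. Its log2 fold change of -1.12 (unadjusted p = 0.0456 by edgeR) went to -0.60 without W1 (unadjusted p = 0.179).

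Of the calcium- or sodium-activated pore genes, 2 of 5 tested were above 0 (1 with library totals only). Kcnt2, a sodium-activated channel, stood at 11.5, 8.28, 6.15, 5.58 and 6.53 CPM in W1 to W5 and at 4.56, 5.35, 4.66, 4.87 and 5.93 CPM in K1 to K5. W1 and W2 were the high libraries, and the groups overlapped through W4 and K5. The log2 fold change was -0.59 with a standard error of 0.19 (edgeR, unadjusted p = 0.00922, adjusted p = 0.597), the smallest p of the 45. It was -0.39 without W1 (unadjusted p = 0.0150) and -0.26 without W1, W2, K2 and K4 (unadjusted p = 0.112). Atrial markers were highest in W1 and W2 as well, and fibroblast markers too, at 2717 and 1640 CPM against 1184 to 1491 elsewhere. Their part in the Kcnt2 values was not tested. Kcnn2, which encodes the small-conductance channel SK2, stood at 4.35, 5.22, 5.50, 6.59 and 7.02 CPM in W1 to W5 and at 5.94, 5.28, 7.90, 14.6 and 6.65 CPM in K1 to K5. Its log2 fold change of 0.50 (adjusted p = 0.740 by edgeR) went to 0.17 without K4 (unadjusted p = 0.330). Kcnn1, the SK1 gene, was even across groups, with 7.38 ± 1.19 and 7.47 ± 0.821 CPM (SD, n = 5 each).

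The 21 tested genes outside the rule for named genes had unadjusted p-values of 0.201 or more, with 7 above 0 and 14 below, and W1 was the highest library for 12 of them. Kcna2, a delayed rectifier of axons, had 11.1 CPM in W1 and 4.49 to 6.197 in the other 9 libraries. Kcna1, which assembles with it, had 2.26 CPM in W1 and 0.238 to 0.843 elsewhere, and the cytoplasmic subunit Kcnab1 3.602 CPM in W1 and 0.988 to 1.76 elsewhere. The summed level of 7 markers of neurons and ganglia was 23.0 CPM in W1 and 10.6 to 16.8 elsewhere, and that of 4 markers of Schwann cells and glia 19.6 in W1 and 4.86 to 7.92 elsewhere, and their part in these values was not tested. Kcnmb1, the smooth muscle subunit of large-conductance channels, had 4.196 CPM in W1 and 0.540 to 1.495 elsewhere. The smooth muscle markers Myh11 and Tagln were also highest in W1, at 83.9 and 44.5 CPM against at most 33.1 and 12.4 elsewhere, while the summed level of the 7 pericyte and smooth muscle markers was lowest there, and their part in the Kcnmb1 values was not tested. Its log2 fold change of -0.48 was 0.65 without W1. Kcnrg, which encodes a regulator that binds channel subunits, had 3.91 CPM in W1 and 0.241 to 1.23 elsewhere, with a log2 fold change of -0.60 that was 0.50 without W1. It overlaps Dleu2 on the opposite strand, with mean counts of 37.8 and 393.1.

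W1 and K4 stood at the extremes for many of these genes. W1 had the highest level of 16 of the 45 tested genes and the lowest of 12, so that it stood at an extreme for 62.2% of them, beside 50.3% of all genes tested. K4 was highest for 14 and lowest for 6, together 44.4%, beside 34.5% of all genes. In W1 several abundant channels were low in CPM, with Kcnip2 at 0.527, Kcng2 at 0.570, Kcna5 at 0.587 and Kcnj8 at 0.605 times the median of the other 9 libraries, while Kcnj3 and Kcnj5 were at 1.205 and 1.06 times. Scaled by library totals alone these ratios would be higher, as the TMM factor of W1 was 1.302. The same library was high for Kcnc2 at 4.47, Kcna1 at 3.66, Kcnab2 at 3.55 and Kcnk13 at 3.51 times that median. K4 was high for Kcne1 at 3.95, Kcnn2 at 2.45, Kcnq1 at 2.08, Kcnd2 at 1.705 and Kcnh2 at 1.70 times the median of the other 9, and low for Kcna5 at 0.549, Kcnt1 at 0.493 and Kcnv2 at 0.441 times. The atrial light chain Myl7 was at 0.357 CPM in K4, 173.3 in W1 and 0.0787 to 25.2 in the other libraries, and the part of atrial content was not tested. K4 was also highest for 5 of the 6 ventricular markers, with Myh6 at 24290 CPM against 5021 to 13950 elsewhere, but not for Tnnt2, at 7349 CPM against 4449 to 9603, and their part in its channel levels was not tested.

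**Figure D4:**
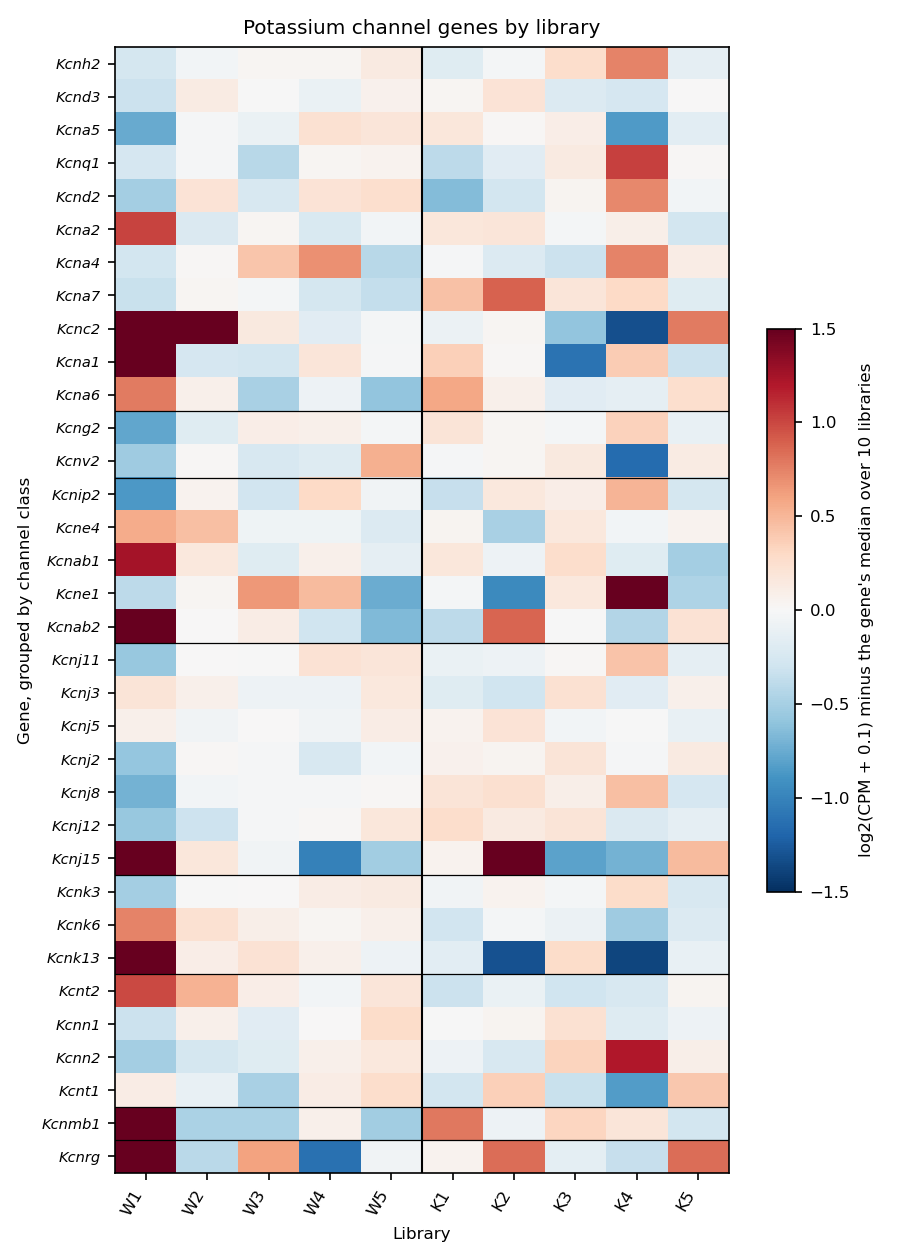
The log2 level of 34 tested genes in each library, minus the gene's median over the 10 libraries, by channel class (red higher, blue lower, W1 to W5 labelled wild type on the left and K1 to K5 labelled knockout on the right). Column W1 is blue for many abundant genes, though not for Kcnj3 and Kcnj5, and dark red for several rare ones, and K4 stands out in red for Kcnq1, Kcnh2, Kcne1 and Kcnn2. No block of genes separates the left columns from the right.

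The 49 untested genes had more counts in W1 than in any other library. Summed over them, W1 had 812 counts and the other libraries 79 to 194, or 17.8 CPM against 3.19 to 6.83. W1 had the highest CPM for 26 of the 47 genes with counts. This excess was not particular to potassium channels, as W1 had the most counts outside the tested genes over all genes too. Of its 35642844 counts 34967151 lay in tested genes, against 39267545 of 39314744 in W2, the next largest gap. The filter leaves out genes with counts in few libraries, so it collects genes seen mainly in W1. No all-gene share was computed beside the 26 of 47. Kcnma1, the pore of the large-conductance calcium-activated channel of smooth muscle and mitochondria, had 80, 11, 18, 4 and 4 counts in W1 to W5 and 2, 11, 2, 1 and 5 in K1 to K5. Kcns3, a silent subunit, had 81, 9, 7, 7 and 9 counts and 3, 10, 6, 3 and 1. Kcnip4, a KChIP relative, had 46, 13, 21, 4 and 9 counts and 7, 7, 5, 13 and 10. The intermediate-conductance channel Kcnn4, known from lymphocytes and epithelia, had 47 counts in W1, 19 in K2 and 2 to 10 elsewhere. K2 had 31 counts of Kcnh1, a voltage-gated channel of the brain, where W1 had 40 and the other 8 libraries 0 to 18. The large-conductance accessory gene Kcnmb2 had 73 counts in W1, 5 in W3, 1 in W4 and 0 in the other 7.

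The lung and airway markers were highest in W1 and W3 and the T cell markers in K2, and their part in these counts was not tested. The chromosome that carries Mapk13 holds 3 potassium channel genes, all untested. Kcnk12 had 12 counts in W1, 2 in W3, 1 in W4 and 3 in K4, Kcnh8 had 9 counts over all libraries, and Kcng3 had 2. These low genes did not pass the count filter. Neither a difference nor a likeness of the groups is read from their counts.

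**Figure D5:**
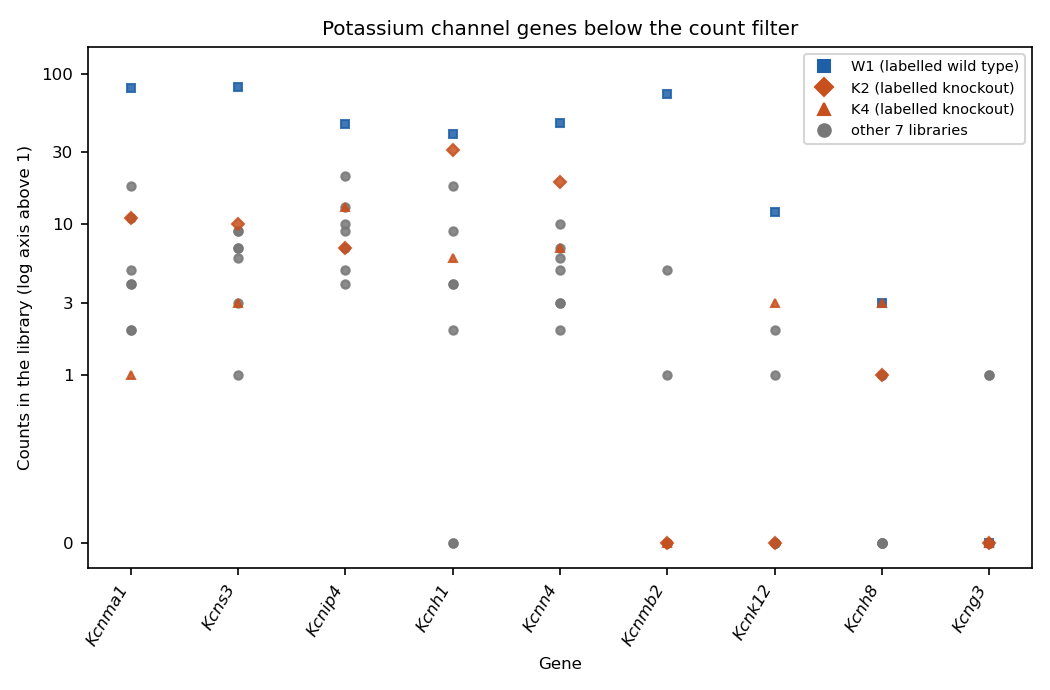
Counts in each library of 9 untested genes, on an axis that is logarithmic above 1 and shows 0 separately (square, W1; diamond, K2; triangle, K4; grey circles, the other 7 libraries). W1 holds the highest count for most of them, such as 80 for Kcnma1 and 73 for Kcnmb2.

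Of 32 listed partners of these channels, regulators and other potassium transport genes, 28 were tested and 0 were called by edgeR, DESeq2 or voom. The lowest adjusted p was 0.714, and 1 gene had an unadjusted p under 0.05 in each of the 3 tests. In edgeR this was Atp1b1, the beta subunit of the sodium pump, which stood at 185.4, 173.9, 186.2, 204.4 and 196.4 CPM in W1 to W5 and at 200.5, 207.9, 213.0, 265.4 and 213.4 CPM in K1 to K5 (log2 fold change 0.22, unadjusted p = 0.0398). Only K1 fell within the range of the other group, and K4 was the highest. Of the 28, 20 were above 0 and 8 below, with a median log2 fold change of 0.09 against -0.01 over all genes tested, and 10 were above 0 and 18 below without W1 and K4. The sulfonylurea receptors that complete ATP-sensitive channels had fitted changes of 0.27 each, with 27.4 ± 2.90 and 33.1 ± 7.86 CPM for Abcc8 and 287.7 ± 78.8 and 345.6 ± 81.8 CPM for Abcc9 (SD, n = 5 each; adjusted p = 0.740 and 0.820 by edgeR). Abcc9 stood at 156.3 CPM in W1 and 292.8 to 359.8 in W2 to W5. In K4 it was at 462.8 CPM, and in the other knockout-labelled libraries at 264.6 to 389.1. Abcc8 was at 46.5 CPM in K4, 26.2 to 31.9 in the other knockout-labelled libraries and 24.6 to 32.3 in W1 to W5. Irx3, a transcription factor of the conduction system, had 20.5 ± 5.41 and 25.9 ± 5.83 CPM. Tmem175, a lysosomal potassium channel outside the Kcn families, differed by 0.18 on the log2 scale.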

How the data were processed

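The authors' deposited table holds expected counts per gene for 10 libraries, all whole numbers. Per the labels' protocols the aligner was STAR 2.5.2 and the genome GRCm39. RSEM 1.3.0 appears in the submitters' processing notes. Annotation release, strand setting and trimming were not given in the sources used here. Reads shared by near-identical or overlapping genes are divided by estimation, so such genes are uncertain. Of 78298 identifiers, 78168 were found in GENCODE vM39 on GRCm39, which also gave exon lengths. The filter sequences come from the GRCm39 genome and the coding exons of that annotation.

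All genes were tested with edgeR 4.0.16 in R 4.3.3: TMM factors, the default filter with a minimum count of 10, robust quasi-likelihood F test, no covariate and Benjamini-Hochberg adjustment at 0.05. Standard errors are approximate, the log2 fold change divided by the root of its F statistic, and intervals use the fit's degrees of freedom. Of 20 within-group pairs of libraries, chi-square per degree of freedom was 9.47 to 179, so none was a duplicate. DESeq2 1.42.0, limma 3.58.1 voom, other scalings and filters, and left-out libraries were alternatives. The procedure was tested on simulated data. Totals limit the precision of low genes.

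The members, the partner and marker lists and the alternatives were chosen with earlier results of these data known. The genes named by rule were called members, the 12 tested with the smallest p, 18 channels of the heart, the 5 highest per kb in wild type, members whose groups do not overlap, those on chromosome 17, the 5 untested with the most counts, and partners called or among the 5 smallest p. Other genes named were chosen after their values were seen. A few genes and sequences that this rule picked are not reported here. The plots show the genes that the text names.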

Additional observations from a re-analysis of the deposited data

Results flagged for a closer look

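In 64 groups of 5 libraries, over the named genes, the highest or lowest library was compared with the rest, and in 15 its gap to the nearest library was large for the group's whole range. For the tested genes among them this held in 8 of 48 groups (16.7%), beside 11.7% of 33400 groups over all tested genes, and chance gives about 1 in 20. The other 7 came from 16 groups of genes below the count filter. W1 was such a library 8 times, K4 5 times and K2 2 times.

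W1 was the high library of the wild-type-labelled group for Kcnk6 with 7.25 CPM (4.38 to 5.06 in W2 to W5), for Kcnk13 with 1.63 (0.463 to 0.590), for Kcnma1 with 1.76 (0.103 to 0.559), for Kcnk12 with 0.264 (0 to 0.0622), for Kcns3 with 1.78 (0.218 to 0.337) and for Kcnn4 with 1.03 (0.0962 to 0.311). It was the low one for Kcnj8 with 12.9 CPM (20.4 to 21.2) and Kcnk3 with 76.4 (108.0 to 119.8).

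K4 was the high library of the knockout-labelled group for Kcnn2 with 14.6 CPM (5.28 to 7.90 in the other 4), Kcnq1 with 35.1 (13.0 to 18.9), Kcne1 with 5.90 (0.739 to 1.71), Kcnj11 with 143.0 (96.7 to 107.8) and Kcnk12 with 0.0973 (0 in the other 4, from 3 counts). K2 was the high one for Kcnh1 with 1.09 CPM (0 to 0.195) and Kcnn4 with 0.669 (0.0898 to 0.236).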

How the results depend on the processing

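No potassium channel gene was called in any of the 20 alternatives, among 478 values of 24 named tested genes (lowest adjusted p 0.265, for Kcnt2 by DESeq2, and between 0.265 and 0.846 over the alternatives). The sign held in every alternative run for 10 of the 24, among them Kcna7, Kcnj12, Kcnj2, Kcnj8, Kcnk13, Kcnk6, Kcnn2 and Kcnt2. Partner genes called stayed at 0 throughout. Over all genes, DESeq2 called 118 against 59 by edgeR, and leaving out 1 library gave 47 to 75, or 86 without W1 and K4. The median log2 fold change of the tested members was 0.01. It was -0.10 with library totals only, where the median of all genes moved to -0.12, and -0.0922 without a low-count filter, where 92 members were tested. Leaving out 1 library gave -0.0594 (without K4) to 0.0685 (without W1). The leave-out set of W1, W2, K2 and K4 was chosen after the data were seen. No paired analysis was possible because the labels of the groups share no replicate numbers. Counts limit what can be said of the 49 untested genes.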

Other observations

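Ratios of subunits within a library, on CPM per kb, were computed for channels built from more than 1 gene product, and none was tested. Kcnip2 over the sum of Kcnd2 and Kcnd3, the partner over the Kv4 pore genes, was 4.22 ± 0.759 in W1 to W5 and 4.77 ± 0.625 in K1 to K5 (SD, n = 5 each). Kcnd2 over Kcnd3 was 1.02 ± 0.162 and 1.09 ± 0.540, with 1.97 in K4 and 0.615 to 1.22 in the other 9 libraries. Kcnj3 over Kcnj5 was 1.48 ± 0.0953 and 1.38 ± 0.300, with 1.01 in K2 and 1.72 in K3. Kcnj11 over Abcc9, the pore over the receptor of ATP-sensitive channels, was 1.19 ± 0.148 and 1.02 ± 0.136, with the highest value, 1.44, in W1. Kcnj11 over Kcnj8, the muscle over the vessel wall pore, was 5.63 ± 0.345 and 4.82 ± 0.612. In that ratio K1, K2, K3 and K4 lay below W1 to W5 (5.22 to 6.07), and K5 at 5.63 lay among them.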
